A study of Mus musculus with 6 samples.

Results

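The first 2 days of the exit from naive pluripotency were described across genes, by subtracting the log2 signal of the array labelled EpiLCs (d2) from that of the array labelled ESCs. Of the 45141 probe sets in the deposited table, 28898 carried exactly 1 gene symbol and were not AFFX controls. These probe sets represented 17097 genes, all of which were used, and each gene was given by its brightest probe set, the one with the highest mean signal over the 6 arrays of the series. The study, which expressed PRDM14 in mouse epiblast-like cells (EpiLCs), hybridized 1 array for each of 6 groups, and 2 of these arrays gave the difference. Both came from E14tg2a embryonic stem cells (ESCs), an established mouse line. By the labels, the ESCs were grown in GMEM, a basal medium, with 10% fetal calf serum (FCS) and leukemia inhibitory factor (LIF). The EpiLCs (d2) had spent 2 days on fibronectin in serum-free N2B27 medium with 20 ng/mL activin A, 12 ng/mL bFGF and knockout serum replacement (KSR), and carried a scramble shRNA. The methods place a doxycycline-inducible Prdm14 cassette in the line, and only the 2 groups named for PRDM14 had it expressed. Values of EpiLCs (d4), at day 4 without added PRDM14, and of day 2 EpiLCs labelled Tet1/Tet2 KD, which carried shRNAs against both genes, are quoted beside some results. By the methods, EpiLCs were collected 2 days after induction and replated on fibronectin in GMEM with KSR. EpiLCs (d4) therefore differed from EpiLCs (d2) in medium and replating as well as in day. The methods also describe culture of ESCs with inhibitors of GSK3 and MEK before induction, and which culture the ESCs array came from was not settled by the sources. In either culture the added factors were other than in EpiLC induction, serum was in only 1 of them, and an shRNA was labelled for the EpiLCs (d2) and not for the ESCs. None of these, nor time, can be told apart from the change of cell state.

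ESCs correspond to the naive epiblast of the blastocyst, and EpiLCs to the epiblast shortly after implantation, which has left the naive state but has not yet formed germ layers. LIF acts through STAT3 on naive factors such as KLF4 and TFCP2L1, whereas bFGF and activin A act through ERK and SMAD2/3 and maintain the primed state. In the embryo this transition goes with the formation of a polarized epithelium on a basement membrane, with a shift from oxidative to glycolytic metabolism and with a wave of de novo DNA methylation.

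At 1.5-fold, the threshold used throughout, 461 of 17097 genes were higher in ESCs (2.70%) and 397 were lower (2.32%). At 2-fold the counts were 179 and 146, and 7 genes were higher and 4 lower by 8-fold or more. The median difference over all genes was 0.01 (ESCs minus EpiLCs (d2), log2), and the 5th and 95th percentiles were -0.37 and 0.40. The spread depended on signal. Among probe sets with a mean signal of 4 to 5, 1.11% passed 1.5-fold, against 10.3% of those between 7 and 8, so that dim genes had little room to be called. Of the 5438 genes with a mean signal of 7 or more, 5.19% were higher and 4.19% lower in ESCs, which is the nearer background for lists of well-expressed genes. With 1 array a side there was no replicate error and no test, and every count below is a description of these 2 arrays, each measured once. As a yardstick, the 2 day 2 arrays, scramble and Tet1/Tet2 KD, differed from each other by 1.5-fold at 5.54% of genes after the arrays were shifted to 1 median, a larger share than the 5.02% of ESCs against EpiLCs (d2) in either direction, and that pair differs in the knockdown as well as in array. In bulk RNA, fewer cells of a type and less RNA per cell cannot be told apart.

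**Figure D1:**
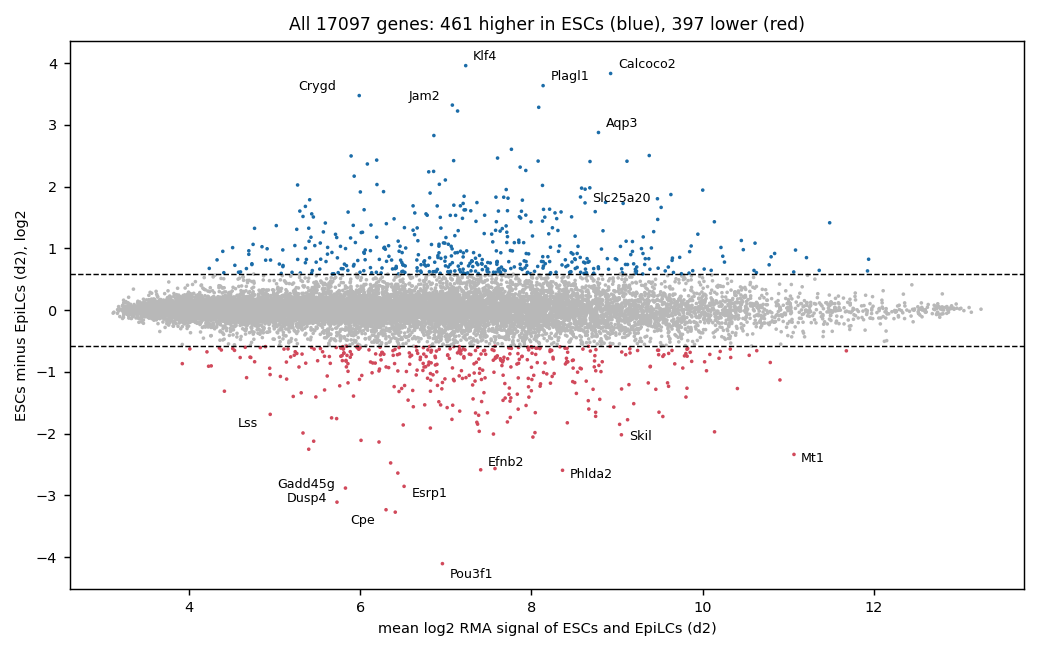
Difference between ESCs and EpiLCs (d2) (log2, vertical axis) against the mean log2 RMA signal of the 2 arrays (horizontal axis) for 17097 genes, each by its brightest probe set; dashed lines mark 1.5-fold. Blue points are the 461 genes higher in ESCs and red points the 397 lower, and calls are sparse below a signal of 5.

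Among called genes with a second probe set at a mean signal of 7 or more, the second had the same sign as the brightest in 55 of 56 genes higher in ESCs and 42 of 42 genes lower in ESCs. It also passed 1.5-fold in 38 and 31 of them, respectively. Over second probe sets of any signal the agreement was lower. The second passed 1.5-fold in the same direction in 77 of 217 genes higher in ESCs and 74 of 204 lower. Its median differences were 0.34 and -0.34. Probe sets of a gene measure the same RNA and are no replicates. Where a named gene had another probe set on the other side of the threshold, its value is given as a difference on the log2 scale (ESCs minus EpiLCs (d2)), by the one nearest to 0 unless stated otherwise.

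The labels were checked against marker lists. Of 20 naive factors, 13 were higher in ESCs, with Klf4 at 9.21 against 5.25, Tfcp2l1 at 9.07 against 6.46, Nanog at 10.32 against 7.91, Tbx3 at 9.14 against 7.12, Fbxo15 at 10.97 against 9.03 and Prdm14 at 6.96 against 5.04. The naive factors Dppa3 (6.49 and 7.26) and Gbx2 (4.84 and 5.47) were lower in ESCs. Of 22 primed epiblast factors 9 were lower and 0 higher, with Pou3f1, a POU factor of the early epiblast, at 4.91 against 9.01. Pou5f1 (11.06 and 10.88) and Sox2 (11.14 and 10.91), which both states express, stayed within 1.5-fold. None of 19 mesoderm and primitive streak genes passed the threshold. The primitive endoderm regulators Gata4 (5.14 and 5.09), Gata6 (5.86 and 5.74) and Sox17 (5.58 and 5.40) and the fibroblast collagens Col1a1 (4.02 and 3.98) and Col1a2 (3.69 and 3.64) were dim in both arrays, whose medians over all probe sets were 5.29 and 5.28. Of 19 primitive endoderm markers, 3 were nevertheless higher in ESCs (Sparc, Dab2 at 1.89-fold and Hhex) and 1 lower (Lamb1), and the median level of the list was 5.81 in ESCs and 5.59 in EpiLCs (d2). Both trophoblast markers past the threshold, Krt18 and Id2, were lower in ESCs, among 16 measured. Of 16 fibroblast markers 1 was higher in ESCs, Vim (10.96 and 9.99), and 0 were lower. Of 14 neural markers 1 was higher, Tubb3 (8.05 and 5.94), and 0 were lower. A further probe set lay within the threshold for Tbx3 (0.00) and Dab2 (0.14).

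Outside the markers, 50 lists on metabolism, signalling, cell cycle, adhesion, chromatin and stress were counted. Lists and members were chosen with earlier results of these data known, so their shares and ranks only describe the lists as written. Beside the shares of all genes given below, 5.19% of genes with a signal of 7 or more were higher and 4.19% lower in ESCs. The lists with the greatest share of members lower in ESCs were cholesterol synthesis and uptake (38.5%), pyruvate, lactate and hypoxia-linked metabolism (25.9%), glutathione and redox (23.1%) and DNA methylation and demethylation (21.9%), against 2.32% of all genes. Lists share members, and the DNA methylation list also held GADD45 genes, among them Gadd45g, its member with the largest decrease. Those with the greatest share higher in ESCs were fatty acid oxidation (24.1%), lysosome and autophagy (14.8%), the LIF pathway (13.9%) and actin, myosin and other cytoskeleton genes (12.8%), against 2.70% of all genes. The respiratory chain, mitochondrial biogenesis, ribosome and G-protein lists had shares close to or below the background in both directions.

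**Figure D2:**
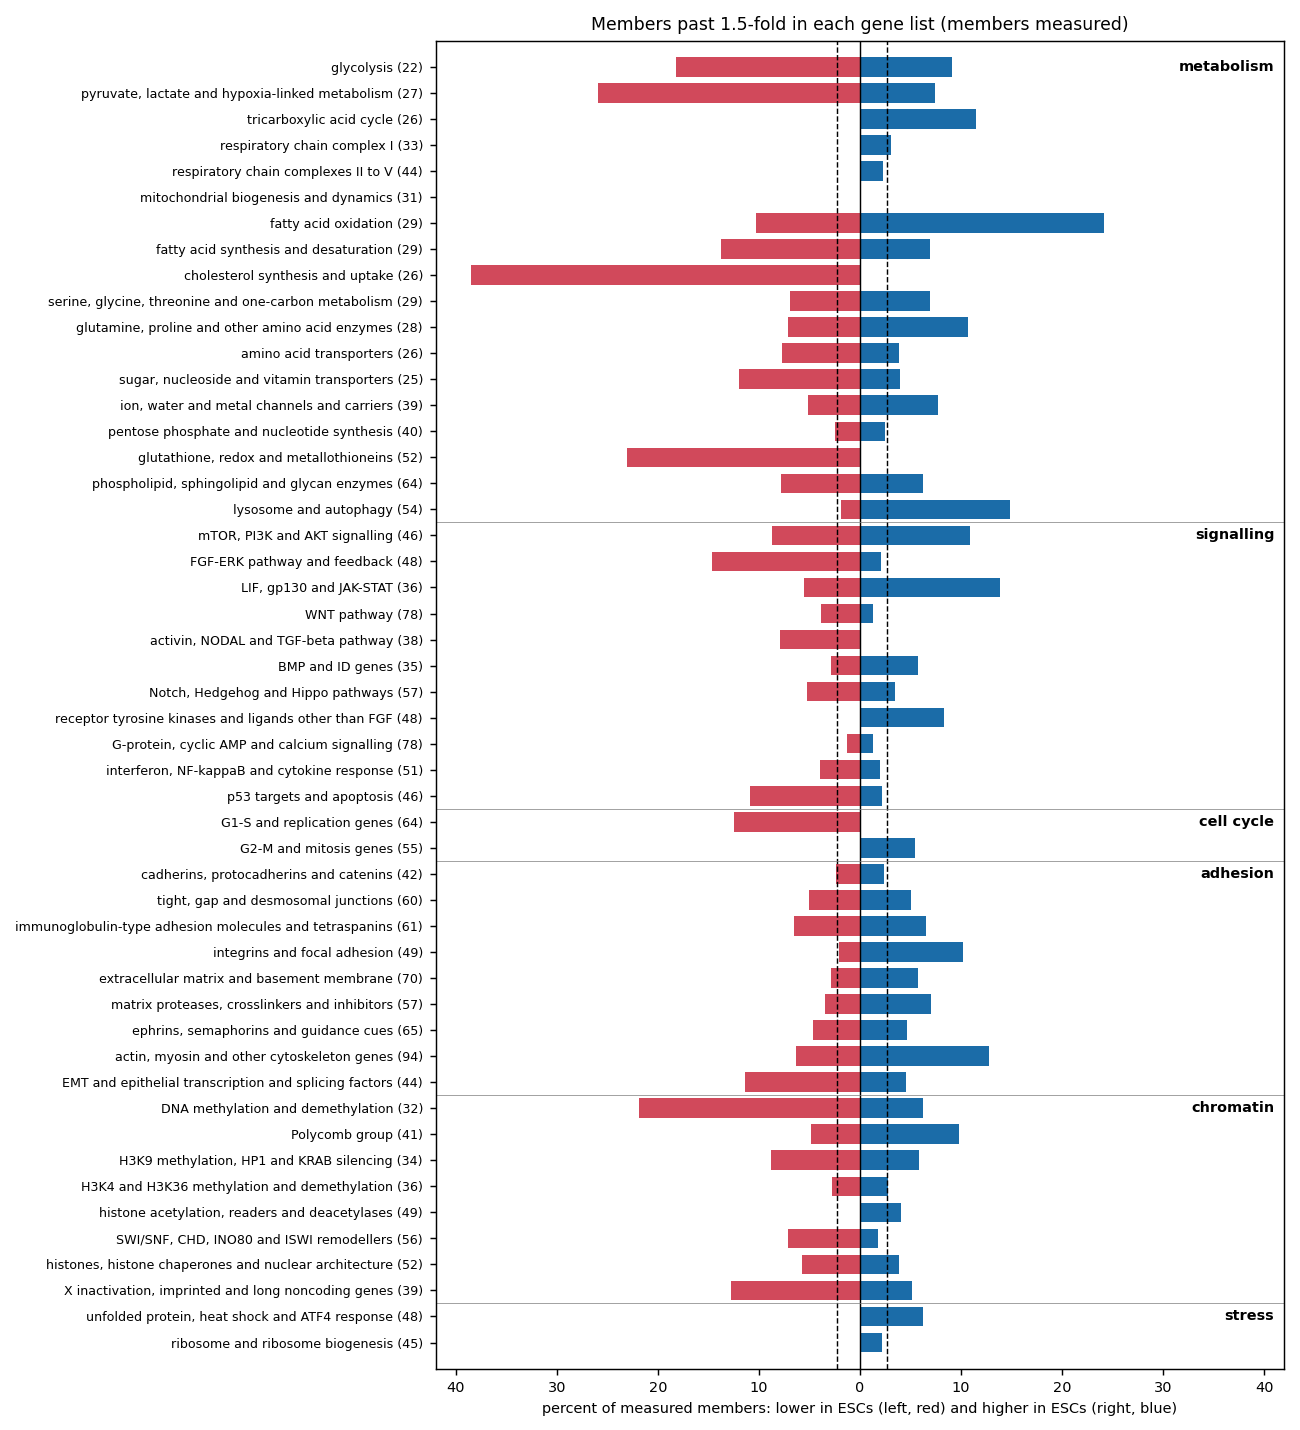
Percent of the measured members of each list that were lower in ESCs (bars to the left, red) or higher in ESCs (bars to the right, blue) by 1.5-fold, with the number measured in parentheses. Dashed lines mark 2.32% and 2.70%, the shares among all genes, and the cholesterol bar (38.5% lower) and the fatty acid oxidation bar (24.1% higher) are the longest on their sides.

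Some genes of mitochondrial fatty acid oxidation were higher in ESCs, at several steps of the pathway but not at all. Of 29 measured members, 7 were higher, 3 lower and 19 within the threshold, and the median difference of the list was 0.09. Slc25a20, the carnitine-acylcarnitine carrier of the inner membrane, read 9.61 in ESCs, and 7.65 and 8.10 in EpiLCs at days 2 and 4, a 3.89-fold difference at day 2, and its second probe set differed by 2.35 on the log2 scale. Cpt1a, which loads acyl groups onto carnitine and is the rate-controlling step of entry, read 8.61 and 7.41 (2.30-fold). Inside the matrix, the medium-chain dehydrogenase gene Acadm was 1.83-fold, the thiolase gene Acaa2 2.04-fold, the isomerase gene Eci2 1.61-fold, the short-chain dehydrogenase gene Acads 1.5-fold and Etfa, which takes electrons from these dehydrogenases, 1.54-fold higher in ESCs. The very-long-chain dehydrogenase gene Acadvl (7.07 and 6.96) and the inner carnitine transferase gene Cpt2 (6.52 and 6.49) were within the threshold. Lpl, the lipase that frees fatty acids from lipoproteins, was 3.93-fold higher in ESCs, and Fabp3, a fatty acid carrier of muscle, 3.10-fold. Fabp3 read 9.03, 7.39 and 8.96 in ESCs, EpiLCs (d2) and EpiLCs (d4), so that its day 4 value was again near that of ESCs.

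The 3 members lower in ESCs were all acyl-CoA synthetases, which activate fatty acids for any use. Acsl4, which prefers arachidonic acid, went from 6.99 in ESCs to 9.05 in EpiLCs (d2) and read 9.65 in EpiLCs (d4), a 4.16-fold difference at day 2. Its other probe sets differed by -1.05 and -0.39, the last within the threshold. Acsl5 differed 3.53-fold in the same direction and Acsl3 1.51-fold. In the list of fatty acid synthesis and desaturation, 4 of 29 genes were lower in ESCs and 2 higher, Fabp3 among the latter. The lower ones build or carry fatty acids: Acaca, the acetyl-CoA carboxylase (1.79-fold, with a second probe set at 0.03), Fasn, the fatty acid synthase (1.65-fold), Scd1, the delta-9 desaturase (2.92-fold), and Fabp5 (3.15-fold), which read 7.92, 9.58 and 10.71 in ESCs, EpiLCs (d2) and EpiLCs (d4). Fabp3 and Fabp5, carriers of the same family, thus lay on opposite sides. Other probe sets on the other side of the threshold were those of Acsl3 (-0.06).

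Cholesterol synthesis was the list with the greatest share of members lower in ESCs. Of 26 measured members 10 were lower in ESCs, 0 were higher and 22 had a difference below 0, with a list median of -0.36. The 10 genes spanned the pathway from isoprenoid precursors to the last sterol reductase. Mvd, which makes isopentenyl diphosphate, read 6.69 in ESCs and 7.67 in EpiLCs (d2) (1.98-fold), the farnesyl diphosphate synthase gene Fdps 9.80 and 10.58 (1.72-fold), and the squalene synthase gene Fdft1 7.99 and 8.83 (1.79-fold). After squalene, Sqle, the epoxidase, was 1.54-fold lower in ESCs, and Lss, which closes the sterol rings, 3.23-fold, although Lss was dim in both arrays (4.1 and 5.79). Cyp51 (1.73-fold), Msmo1 (1.63-fold) and Dhcr7 (1.63-fold), which demethylate lanosterol and reduce the final double bond, lay on the same side, with the second probe set of Msmo1 at -0.12. Insig1, a feedback regulator that holds SREBP proteins in the endoplasmic reticulum and is itself an SREBP target, was 2.26-fold lower in ESCs, and Stard4, a cytosolic sterol carrier, 1.70-fold. Srebf2, which encodes the SREBP form that drives this pathway, differed by -0.06, and Idi1 (-0.43), Sc5d (-0.56, with another probe set at -0.93) and Nsdhl (-0.26) were within the threshold. At day 4 most of the 10 genes were nearer to ESCs than at day 2: Insig1 read 9.62, Fdft1 8.48 and Cyp51 8.49. The exceptions were Lss, at 6.25, and Sqle, at 9.46 on day 2 and 9.50 on day 4. Cyp51 (-0.30) and Stard4 (-0.53) also had a probe set within the threshold.

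Promoters from RefSeq (build GRCm38.p6), spanning 250 bases before to 50 after each start site, were at hand for 20 of the 26 cholesterol genes. The CCAAT box, which NF-Y binds, is a known partner of sterol elements in these promoters and was searched on both strands as CCAAT. It occurred in 18 of the 20 genes (90%), counting a gene when any of its listed promoters held the box, against 41.1% of 27025 genes, in 6 of the 6 genes that were lower in ESCs and in 12 of the 14 that were within the threshold, so that it did not separate the called genes from the rest of the list. The sterol element in the core form TCACNCCAC was found in 1 of the 20 genes (5%) and in 1.44% of all genes, and the E-box CACGTG in 5 of the 20 (25%) against 8.09%. The 150 bases before the start site are printed for the 4 genes lower in ESCs that had a single listed promoter with a box in this stretch, written 5′ to 3′ on the strand of the gene, with each box (CCAAT, or ATTGG on the other strand) in capitals. Lss lies at chr10:76531455-76531604 on the + strand, Mvd at chr8:122443423-122443572, Cyp51 at chr5:4104698-4104847 and Msmo1 at chr8:64733579-64733728, all 3 on the - strand.
Lss: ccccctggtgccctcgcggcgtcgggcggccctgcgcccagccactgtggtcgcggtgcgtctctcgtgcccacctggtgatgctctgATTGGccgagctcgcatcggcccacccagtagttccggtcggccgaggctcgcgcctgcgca
Mvd: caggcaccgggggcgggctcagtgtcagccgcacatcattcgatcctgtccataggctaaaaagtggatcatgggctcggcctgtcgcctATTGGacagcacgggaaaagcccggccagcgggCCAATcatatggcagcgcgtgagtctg
Cyp51: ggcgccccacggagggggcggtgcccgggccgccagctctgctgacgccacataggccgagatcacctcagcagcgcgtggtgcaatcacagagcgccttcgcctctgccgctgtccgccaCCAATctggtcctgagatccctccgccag
Msmo1: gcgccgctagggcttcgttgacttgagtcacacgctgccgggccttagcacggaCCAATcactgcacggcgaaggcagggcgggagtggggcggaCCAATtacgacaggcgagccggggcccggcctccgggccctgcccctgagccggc

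In Mvd and Msmo1 a pair of boxes stands in this stretch, and in Lss and Cyp51 a single box. The 5′ end of the box nearest to the start site lay 62 bases upstream in Lss, 27 in Mvd, 29 in Cyp51 and 55 in Msmo1. A match describes the letters of the reference, and no binding was measured.

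Central carbon metabolism differed at single steps. Of 22 glycolytic genes 4 were lower and 2 higher in ESCs. Of the lower ones Tpi1, Pgk1 and Pfkm are named here, and of the higher ones Pfkp. Tpi1, the triose phosphate isomerase, read 8.98, 10.22 and 10.92 in ESCs, EpiLCs (d2) and EpiLCs (d4), and its other probe set differed by -1.18. Pgk1 was 1.58-fold lower in ESCs. Ldha, which reduces pyruvate to lactate and was counted in the pyruvate and lactate list, was 1.80-fold lower. The phosphofructokinase genes went opposite ways: Pfkp, the platelet form, read 8.62 and 7.13 (higher in ESCs), Pfkm, the muscle form, 7.24 and 8.03 (lower), and Pfkl, the liver form, 6.74 and 7.0. The second probe set of Pfkp differed by only 0.08. Hk2 (0.09), Gapdh (-0.13), Aldoa (-0.20) and Pkm (-0.53) were within the threshold. The glucose transporters also diverged. Slc2a3 (GLUT3) read 11.02 in ESCs, and 9.89 and 10.99 in EpiLCs at days 2 and 4, and Slc2a1 (GLUT1) read 8.91, 9.57 and 11.11, so that at day 2 the first was higher and the second lower in ESCs. By another probe set, the difference stayed within the threshold for Pgk1 (-0.56) and Slc2a3 (0.18).

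In the list of pyruvate, lactate and hypoxia-linked metabolism, 7 of 27 genes were lower in ESCs and 2 higher. These shares were 25.9% and 7.41%, against 2.32% and 2.70% of all genes. Bnip3, a mitophagy receptor, was 3.51-fold lower in ESCs, the carbonic anhydrase genes Car4, Car2 and Car9 were 2.36-, 1.65- and 1.62-fold lower, and Ddit4, an mTOR inhibitor, 1.53-fold. Epas1 (HIF-2 alpha) was 1.52-fold lower with a second probe set at -0.02, and Hif1a was within the threshold (-0.43). Epas1 read 7.07, 7.67 and 6.06 in ESCs, EpiLCs (d2) and EpiLCs (d4), the last below ESCs. Oxygen was not a variable of the labels. On the mitochondrial side, Mpc1, a subunit of the pyruvate carrier, read 10.06, 8.79 and 8.26 in ESCs, EpiLCs (d2) and EpiLCs (d4), and Pdha1, a subunit of pyruvate dehydrogenase, was 1.51-fold higher in ESCs. Of 26 genes of the tricarboxylic acid cycle 3 were higher and 0 lower: Idh1, the cytosolic and peroxisomal NADP isocitrate dehydrogenase (10.85 and 9.42, 2.69-fold), Idh2, its mitochondrial form (2.02-fold, with a second probe set at 0.05), and Sucla2 (1.61-fold, with a second probe set at 0.03). Idh3a, of the NAD-dependent enzyme, read 9.94 and 10.08. The 33 complex I genes shared a small difference, with 29 above 0 and a median of 0.15, but only Ndufb4 (1.56-fold) passed 1.5-fold, and among 44 genes of complexes II to V only Cox7a1, the heart and muscle isoform of a cytochrome oxidase subunit (8.04 and 6.42, 3.08-fold). Ak4, a mitochondrial adenylate kinase, was 4.79-fold higher in ESCs by its brightest probe set and by another (2.85), while its other 3 differed by 0.04 to 0.19. Within the threshold by another probe set were Pdha1 (0.55) and Ndufb4 (0.03).

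Redox and detoxification genes past the threshold all lay on 1 side. Of 52 measured, 12 were lower in ESCs and 0 higher. Several are known targets of NRF2, a regulator of the antioxidant response. Nqo1, a quinone reductase, read 7.34 in ESCs, and 8.65 and 7.35 in EpiLCs at days 2 and 4, back at the ESC level. Hmox1, the heme oxygenase, was 2.22-fold lower in ESCs, Gclm and Gclc, the subunits of the enzyme that starts glutathione synthesis, 1.92- and 1.82-fold, and Txnrd1, a thioredoxin reductase, 1.59-fold. Nfe2l2, which encodes NRF2, was within the threshold (8.97 and 9.0), and Slc7a11, the cystine transporter and another NRF2 target, was near the bottom of the scale in both arrays (4.06 and 4.03). The differences were larger for Cbr3, a carbonyl reductase (8.23 and 10.01), Gstm5 (5.86 and 7.78) and Gpx2 (6.51 and 8.18), which detoxify carbonyls, electrophiles and peroxides. Mt1, a metallothionein that binds zinc and copper, was the most abundant of them, at 9.90 and 12.24 (5.06-fold), with a second, dimmer probe set at -0.25. Ptgr1 (3.30-fold), Pon2 (3.35-fold) and Selenop, which carries selenium (3.63-fold), among the 40 genes with the largest decrease, lay on the same side. Gpx1 (0.22), Gpx4 (-0.34), Prdx1 (-0.19) and Sod1 (0.10), which are abundant in both arrays, were within the threshold. In the Tet1/Tet2 KD day 2 array, after the shift to 1 median, Mt1 read 11.55, Nqo1 8.29 and Cbr3 10.06, each nearer to EpiLCs (d2) than to ESCs. A further probe set lay within the threshold for Pon2 (-0.04).

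Amino acid metabolism differed at few genes. Asns, the asparagine synthetase (11.15 and 10.07, 2.12-fold), Bcat1, a branched-chain transaminase (2.02-fold), Cth, which makes cysteine from cystathionine (2.04-fold), and Slc7a1, a cationic amino acid carrier (1.93-fold), were higher in ESCs. Hal, which degrades histidine, read 6.30 and 4.52, the latter below the array median. The neutral amino acid carrier Slc38a2 (9.10 and 10.51, 2.66-fold), Oat (2.08-fold), which links ornithine to proline, and Odc1 and Srm, which begin polyamine synthesis (1.57- and 1.55-fold), were lower in ESCs. Slc7a5 and Slc3a2, the subunits of the LAT1 carrier, differed by 0.00 and 0.01. The channel gene with the largest difference was Aqp3, an aquaporin that also passes glycerol, at 10.22, 7.34 and 7.38 in ESCs, EpiLCs (d2) and EpiLCs (d4), a 7.34-fold difference at day 2 that all 3 of its probe sets showed past the threshold. Kcnk1, a potassium leak channel, went the other way (6.88 and 8.62). Adk, the adenosine kinase, was 3.61-fold lower in ESCs, one of its other probe sets differing by -1.98 and another by -0.14. Other probe sets on the other side of the threshold were those of Bcat1 (0.37), Slc7a1 (0.08) and Slc38a2 (-0.22).

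Of 54 lysosomal and autophagy genes 8 were higher in ESCs (14.8%, against 2.70% of all genes), 1 was lower and 45 were within the threshold, with a list median of 0.07. Calcoco2, an autophagy receptor, had the largest increase in ESCs of all genes after Klf4, at 10.84 in ESCs, and 7.01 and 8.74 in EpiLCs at days 2 and 4, with 9.07 in the Tet1/Tet2 KD day 2 array, so that the 14.2-fold difference of the scramble day 2 array was the widest of the 3 EpiLC arrays. It had 1 probe set. The kinase Ulk1, which starts autophagy (2.43-fold), Gabarapl2, an ATG8-type protein of the autophagosome (1.80-fold), the protease Ctsc (3.23-fold) and the beta-galactosidase Glb1 (2.35-fold) were also higher. Ctsc and Ulk1 had other probe sets within the threshold (0.09 and 0.40 for the next brightest). Of the MiT family of lysosomal regulators, Mitf read 6.86 and 5.23 (higher in ESCs, second probe set 0.03), Tfe3 7.01 and 7.57 and Tfeb 6.46 and 6.40, the last 2 within the threshold. Rragd, a RAG GTPase that ties lysosomes to mTORC1, was the only member lower in ESCs (1.80-fold). The glycosidase Manba (2.16-fold) and the ceramidase Asah1 (1.79-fold), also lysosomal, were counted in another list and were higher in ESCs. Rragd (-0.13) also had a probe set within the threshold.

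**Figure D3:**
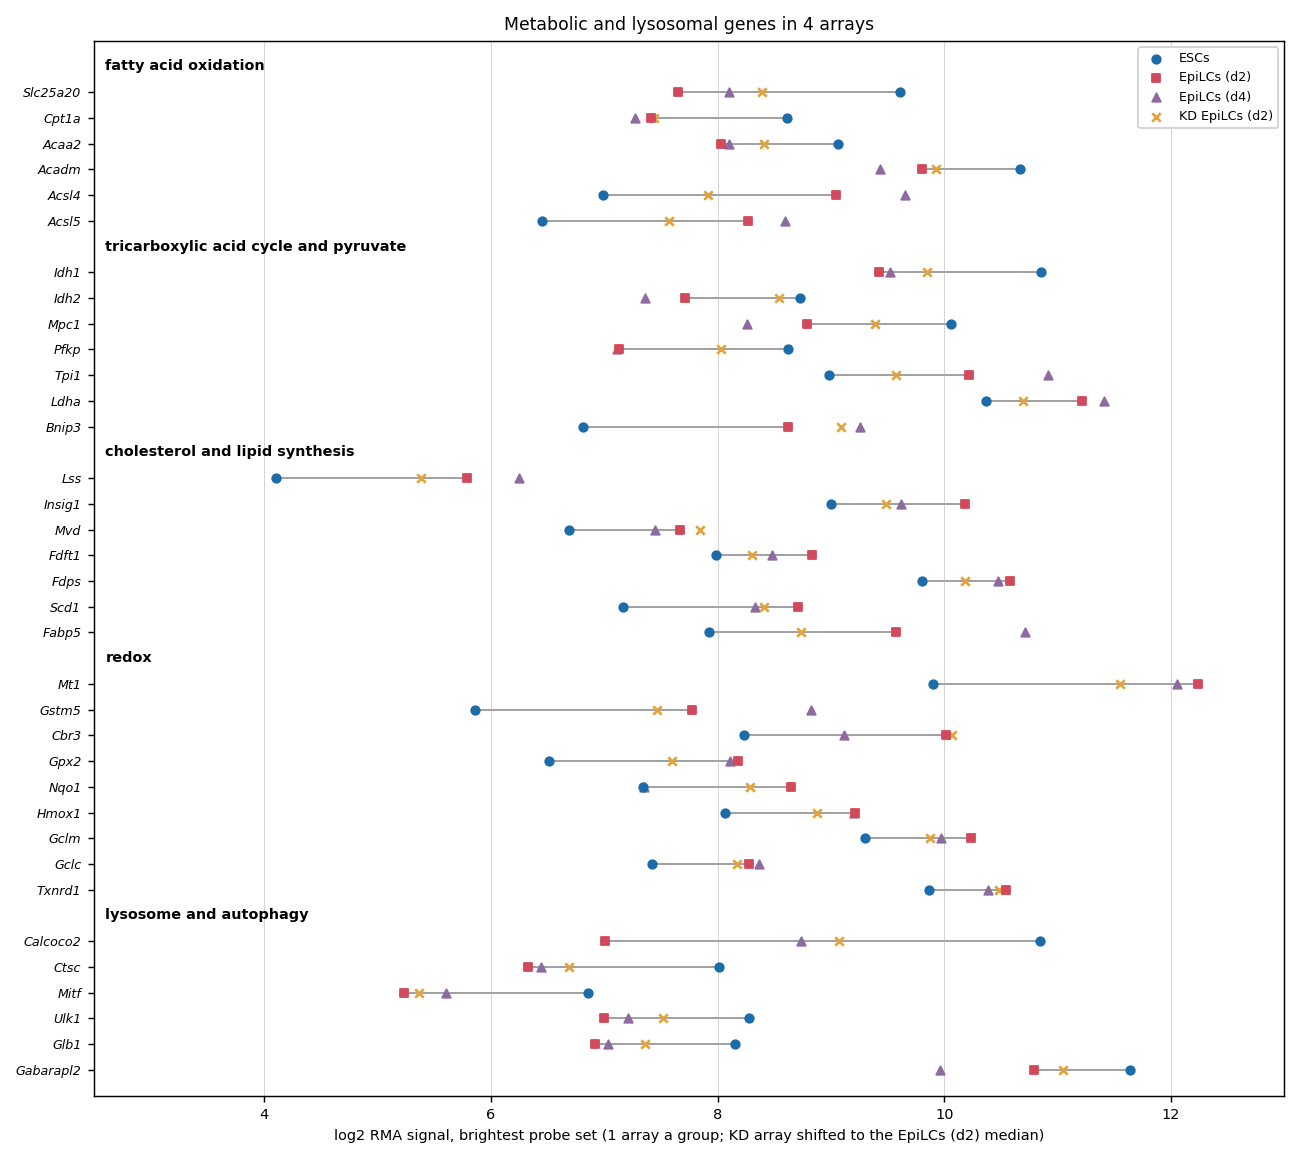
Log2 RMA signal (horizontal axis) of metabolic and lysosomal genes in ESCs (circles), EpiLCs (d2) (squares), EpiLCs (d4) (triangles) and Tet1/Tet2 KD EpiLCs (d2) (crosses, shifted to the EpiLCs (d2) median), 1 array each, with a line from ESCs to EpiLCs (d2). The genes drawn were chosen among those past 1.5-fold. By that choice all 9 redox genes and all 7 genes under cholesterol and lipid synthesis are lower in ESCs than in EpiLCs (d2), and the 6 lysosomal genes are higher. Of 52 redox genes measured 40 were within the threshold. Fabp3 (higher in ESCs) and Rragd (lower), which went against the genes drawn, are not shown.

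Cell adhesion genes differed at few members per family, and in both directions, with the classical cadherin genes within the threshold. Cdh1 (E-cadherin) read 11.41 and 11.58 and Ctnnb1 (beta-catenin) 11.69 and 11.72. Cdh2 (N-cadherin), dim in both arrays (4.47 and 4.99), was within the threshold by its brightest probe set, but its other probe set differed by -1.57. Pcdh8, a protocadherin of the early mesoderm, was 4.77-fold lower in ESCs (4.27 and 6.53). Among 60 junction genes 3 were higher and 3 lower in ESCs. Jam2, an immunoglobulin-type tight junction protein, read 8.74, 5.42 and 5.70 in ESCs, EpiLCs (d2) and EpiLCs (d4), a 9.99-fold difference at day 2, and 3 of its other 4 probe sets passed the threshold in the same direction. The desmosomal cadherin Dsg2 (2.85-fold) and the connexin gene Gjc1 (2.35-fold) were higher in ESCs, whereas Gja1, the main connexin, went the other way (9.77 and 11.04, 2.41-fold). The claudin genes Cldn4 and Cldn7 were 1.68- and 1.79-fold lower in ESCs and read 8.47 and 7.74 at day 4, above their day 2 values of 7.25 and 6.54. By another probe set, the difference stayed within the threshold for Jam2 (0.34), Dsg2 (0.03) and Gja1 (-0.11).

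At the cell surface, Icam1, a ligand of leukocyte integrins (7.94 and 5.91, 4.1-fold), and the tetraspanin gene Cd9 (10.56 and 9.33, 2.34-fold) were higher in ESCs. Epcam, an epithelial adhesion molecule (8.44 and 9.95, 2.86-fold), and Prom1, a pentaspan protein of membrane protrusions (5.12 and 7.76, 6.23-fold), were lower. Esrp1, the epithelial splicing regulator, was among the 40 genes with the largest decrease, at 5.08, 7.94 and 8.60 in ESCs, EpiLCs (d2) and EpiLCs (d4). Its paralog Esrp2 (5.71 and 5.72) did not pass. Grhl1 and Grhl2, epithelial transcription factors, were 1.68- and 1.70-fold lower in ESCs, with a second probe set of Grhl2 at -0.17, and Zeb1, a repressor of epithelial genes, 1.56-fold higher, with other probe sets at -0.01 and 0.20. In the Tet1/Tet2 KD day 2 array Zeb1 read 6.56, above the 6.18 of ESCs. Snai1 (-0.01) and Zeb2 (-0.01) were within the threshold.

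Most integrin genes were within the threshold, whereas some of their adaptors were higher in ESCs. Of 49 integrin and focal adhesion genes, 5 were higher and 1 was lower, and the only integrin among them was Itgb5 (1.58-fold). Itgb1 (-0.11), Itga6 (-0.20) and Itga5 (0.09), the last of which pairs with Itgb1 to bind fibronectin, were within the threshold. Fermt2 (kindlin-2), which activates integrins, read 8.91 and 7.40 (2.84-fold), the SRC-family kinase gene Yes1 9.06 and 7.49 (2.98-fold) and vinculin, Vcl, 9.39 and 8.56 (1.78-fold). The other probe sets of Fermt2 differed by 1.17 and 0.01, the last within the threshold, and the second probe sets of Yes1 and Vcl by 0.54 and 0.15. Fblim1 (migfilin), which links filamin to focal adhesions, was 3.87-fold higher, and its second probe set differed by 2.53. Bcar3 was lower (2.37-fold, second probe set 0.01). Within the threshold by another probe set was Itgb5 (0.55).

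Of 70 matrix and basement membrane genes 4 were higher in ESCs and 2 lower (5.71% and 2.86%), close to the 5.19% and 4.19% of genes with a signal of 7 or more, and 64 were within the threshold. Nid1, which joins laminin to collagen IV (8.84 and 6.37, 5.51-fold), Sparc (9.94 and 8.21, 3.31-fold) and the proteoglycan gene Agrn (2.29-fold) were higher in ESCs, the second probe sets of Nid1 and Agrn differing by 0.58 and -0.16. Lamb1, a laminin chain, read 6.65, 8.32 and 9.52 in ESCs, EpiLCs (d2) and EpiLCs (d4) and was lower in ESCs, as was Col18a1 (2.55-fold). The partners of Lamb1 in the laminin trimer, Lama1 (0.25) and Lamc1 (0.47), were within the threshold. Fn1, which encodes the fibronectin made by the cells themselves, read 9.97 and 9.48. The EpiLCs were plated on added human plasma fibronectin. Among proteases, the secreted Htra1 read 7.21 in ESCs, and 5.18 and 4.93 in EpiLCs at days 2 and 4, with 7.28 in the Tet1/Tet2 KD day 2 array. The latter value lay at the ESC level, so that the 4.09-fold difference was not seen against the other day 2 array. Adam9 (2.69-fold) was higher in ESCs and Adam19 (3.96-fold, second probe set -0.38) lower. Cpe, a carboxypeptidase of secretory granules, was 9.41-fold lower in ESCs (4.68 and 7.92), and so was Pkdcc, a secreted tyrosine kinase (9.66-fold, second probe set -0.24). Efnb2, a ligand of Eph receptors, read 6.11 and 8.70 (6.01-fold). Among 65 guidance genes 3 were higher and 3 lower (4.62% each way, against 2.70% and 2.32% of all genes). A further probe set lay within the threshold for Lamb1 (0.02) and Efnb2 (-0.03).

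Actin and myosin genes were the adhesion-related list with the largest share higher in ESCs, 12 of 94 with 6 lower. Myl9 (7.01 and 4.84, 4.50-fold), Myl7 (2.59-fold) and Myl6 (1.89-fold) encode myosin light chains, Cald1 (2.51-fold), Cnn2 (2.14-fold) and Tpm4 (1.67-fold) encode regulators of actomyosin, and Flna (1.71-fold) and Actn1 (1.55-fold) crosslink filaments. Cald1 read 7.61 in ESCs and 6.28 in EpiLCs (d2), but 8.09 at day 4 and 8.28 in the Tet1/Tet2 KD day 2 array, both above ESCs. The monomer-binding Tmsb4x (11.14 and 10.41) and the intermediate filament gene Vim (10.96 and 9.99) lay on the same side. For several of these genes the day 2 value was the low point: Cnn2 read 8.40, 7.30 and 8.35, Tpm4 9.47, 8.73 and 9.52, and Flna 7.98, 7.21 and 7.91 in ESCs, EpiLCs (d2) and EpiLCs (d4). Vim did not follow them, at 8.82 on day 4. The actins Actb (0.10) and Actg1 (0.28) and the myosin heavy chain gene Myh9 (0.14) were within the threshold. Lower in ESCs were the bundling protein gene Pls3 (1.64-fold), Tpm2 (1.70-fold) and the microtubule protein gene Map1b (2.02-fold), and Tubb3, a beta-tubulin used as a neuronal marker, was 4.31-fold higher in ESCs. Other probe sets on the other side of the threshold were those of Myl6 (0.12), Cald1 (0.05), Actn1 (0.16), Tpm2 (0.01) and Map1b (-0.05).

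**Figure D4:**
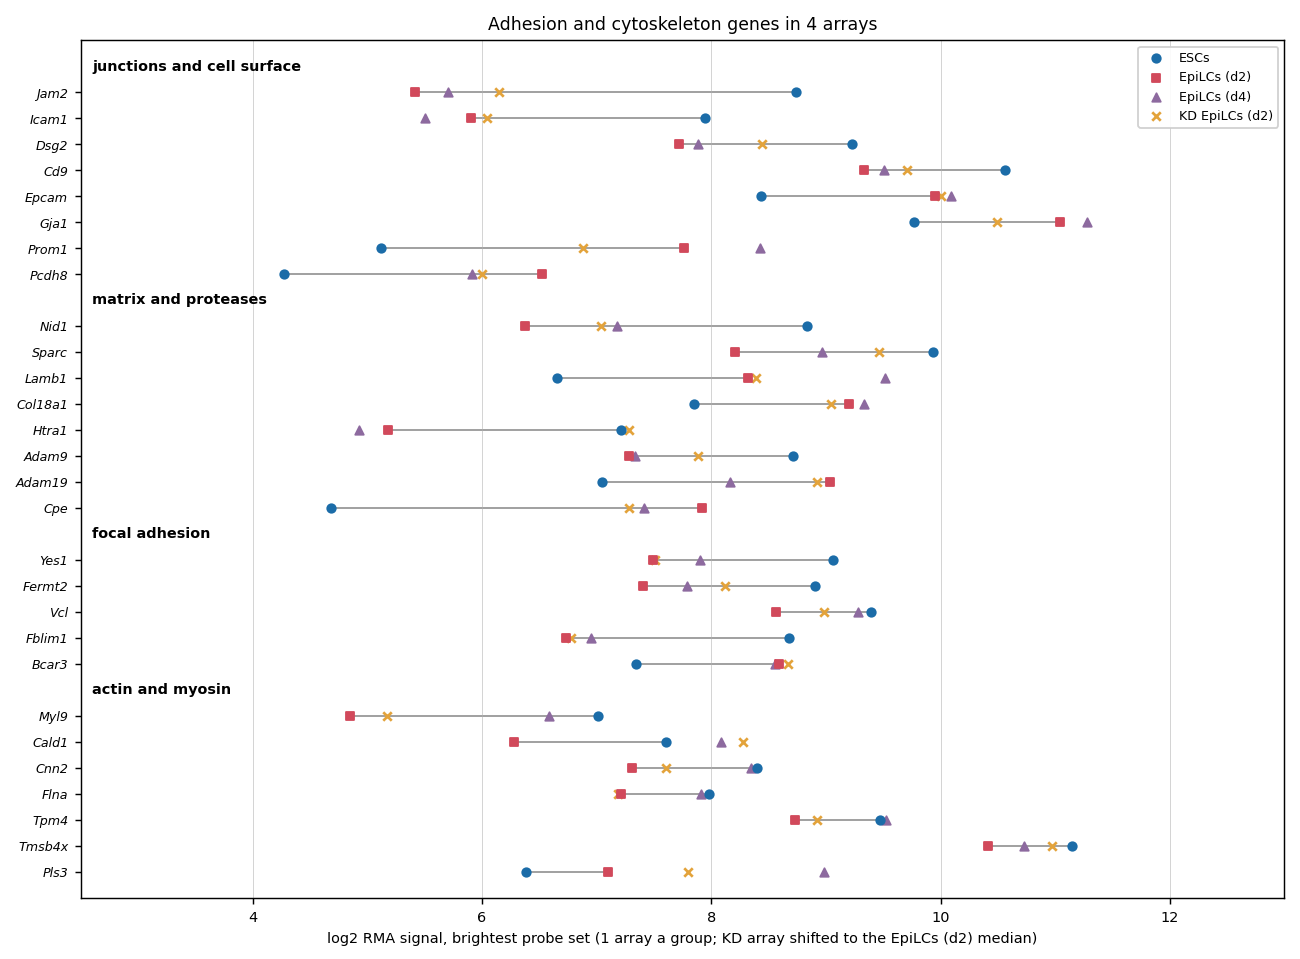
Log2 RMA signal (horizontal axis) of adhesion, matrix and cytoskeleton genes in ESCs (circles), EpiLCs (d2) (squares), EpiLCs (d4) (triangles) and Tet1/Tet2 KD EpiLCs (d2) (crosses, shifted to the EpiLCs (d2) median), 1 array each. The triangles of Cnn2, Flna and Tpm4 lie beside their circles, the cross of Htra1 lies beside its circle, and Lamb1, Cpe and Prom1 are lower in ESCs than in the other 3 arrays.

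In the FGF-ERK list 7 of 48 genes were lower in ESCs and 1 was higher, and phosphatases and other inhibitors of the cascade led it. The MAP kinase phosphatase genes Dusp4 (4.17, 7.28 and 7.03 in ESCs, EpiLCs (d2) and EpiLCs (d4), 8.64-fold at day 2), Dusp1 (2.77-fold) and Dusp6 (2.01-fold) and the ERK inhibitor gene Spry4 (1.92-fold, with 3 other probe sets between -0.20 and 0.00) were lower in ESCs, as was the kinase gene Braf (2.05-fold). Other genes of the same feedback stayed within the threshold: Spry2 (0.22), Etv4 (0.18), Etv5 (-0.21) and Egr1 (0.17). Fgf4 (-0.35) and the receptor genes Fgfr1 (0.15) and Fgfr2 (-0.45) also did. Fgf5, a ligand of the early postimplantation epiblast, was 1.89-fold lower in ESCs. Braf (-0.31) and Fgf5 (-0.04) also had a probe set within the threshold.

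In the LIF list 5 of 36 genes were higher in ESCs. Besides Klf4 and Tfcp2l1 these were the receptor gene Lifr (8.95 and 7.67, with other probe sets at 0.03 and 0.27), the feedback inhibitor gene Socs3 (1.5-fold) and Bcl3, a co-regulator of NF-kappaB (2.84-fold). Il6st (gp130) at 0.58 and Stat3 at 0.42 stayed below the threshold. Pim2, a kinase gene known as a STAT target in blood cells, was 5.93-fold lower in ESCs and read 6.29, 8.86 and 9.62 in ESCs, EpiLCs (d2) and EpiLCs (d4), but 6.79 in the Tet1/Tet2 KD day 2 array, nearer to the ESC value. Sh3bgrl, among the 40 genes with the largest decrease, shared this pattern, at 4.39, 6.52 and 8.45, and 4.65 in the Tet1/Tet2 KD day 2 array. By another probe set, the difference stayed within the threshold for Sh3bgrl (-0.47).

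Of 38 genes of the activin and NODAL pathway 3 were lower in ESCs and 0 higher. The share lower was 7.89%, against 2.32% of all genes and 4.19% of genes with a signal of 7 or more. The 3 genes encode negative regulators: the antagonists Lefty1 (9.15 and 11.12, 3.92-fold) and Lefty2 (1.68-fold) and the SMAD repressor Skil (8.04 and 10.06, 4.05-fold). Lefty2 read 7.52 and 8.27, and 7.50 in the Tet1/Tet2 KD day 2 array, at the ESC level. Nodal itself differed by -0.22. On the BMP side, Id3 read 8.27 and 5.45 (7.09-fold higher in ESCs), whereas Id1 read 6.75 and 6.82 and Id2, lower in ESCs, 4.12 and 5.22, so that the 3 inhibitors of bHLH factors took 3 different courses. Bmp4 was 2.27-fold higher in ESCs and read 6.74 in the Tet1/Tet2 KD day 2 array against 5.60 in the scramble array. Of 78 WNT genes 1 was higher and 3 lower. The Frizzled receptors parted, with Fzd5 1.81-fold higher in ESCs and Fzd7 3.04-fold lower (second probe set 0.05), and the target gene Axin2 differed by -0.13. Within the threshold by another probe set was Id2 (-0.08).

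Among PI3K, AKT and mTOR genes, Tcl1, an AKT co-activator (5.35-fold), Foxo3 (2.44-fold), the kinase gene Sgk1 (1.93-fold) and Deptor, an mTOR inhibitor (1.80-fold by its brightest of 4 probe sets), were higher in ESCs, and Phlda2, an imprinted gene for a phosphoinositide-binding protein, was 6.04-fold lower (7.07 and 9.66). Foxo4 went against Foxo3, at 1.74-fold lower. Among receptor tyrosine kinases and their ligands 4 of 48 were higher in ESCs and 0 lower, including Kit (8.78 and 7.0) and the ligand gene Vegfc (7.42, 5.85 and 4.89 in ESCs, EpiLCs (d2) and EpiLCs (d4)). In the Notch, Hedgehog and Hippo list, Ptch1, a Hedgehog receptor and target (2.20-fold), and Notch3 (1.76-fold) were lower in ESCs, and Tead1 (1.71-fold) and Wwtr1, which encodes TAZ (1.73-fold), partners in the Hippo pathway, were higher. Tead1 and Wwtr1 read 9.02 and 7.34 at day 4, against 9.05 and 7.38 in ESCs. A further probe set lay within the threshold for Foxo3 (0.08), Deptor (0.24), Foxo4 (-0.12), Ptch1 (-0.05), Notch3 (-0.20) and Wwtr1 (0.19).

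The GADD45 family, stress-induced genes that bind the MEKK4 kinase, split by member. Gadd45b was 3.10-fold higher in ESCs (8.96 and 7.33), while Gadd45a (6.41 and 8.37, 3.90-fold) and Gadd45g (4.38 and 7.27, 7.38-fold) were lower. The p53 target gene Pmaip1 (NOXA) was 2.27-fold lower in ESCs, and Cdkn1a (0.12) was within the threshold. Of 64 G1-S and replication genes 8 were lower in ESCs and 0 higher, and none of the 8 encodes a part of the replication machinery. They were the growth regulators Mycn (7.89 and 9.61, 3.30-fold, with other probe sets at 0.04 and -0.99) and Myc (1.86-fold), the cyclin genes Ccnd1 (1.78-fold) and Ccne1 (1.57-fold), the repressors E2f7 (2.14-fold) and E2f8 (1.90-fold), and the inhibitors Cdkn1c (5.12 and 7.59, 5.56-fold) and Cdkn2a (2.04-fold). At day 4 Ccnd1 (9.43) and Ccne1 (9.04) were no longer above their levels in ESCs (9.46 and 9.16). Mki67, a proliferation marker, differed by 0.00. Of 55 mitosis genes 3 were higher in ESCs: Aurkc, the germline Aurora kinase (2.71-fold), Cep55 (2.05-fold) and Pttg1 (1.56-fold). This share of 5.45% was near the 5.19% of genes with a signal of 7 or more. Other probe sets on the other side of the threshold were those of Ccnd1 (-0.56), E2f8 (-0.02) and Pttg1 (0.32).

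Chromatin genes differed at de novo DNA methylation and at single subunits of complexes. Of 32 DNA methylation and demethylation genes 7 were lower in ESCs, Gadd45g among them, and 2 higher, Gadd45b and Prdm14. Dnmt3a (8.18 and 9.75, 2.97-fold, 5 of 5 probe sets past the threshold) and Dnmt3b (10.34 and 11.47, 2.19-fold) were lower in ESCs, while Dnmt1 (-0.03), Uhrf1 (0.07) and Dnmt3l (-0.34) were within the threshold. The glycosylase gene Tdg, which removes oxidized methylcytosine, was 1.68-fold lower in ESCs and Tet2 differed by 0.40. Of 41 Polycomb genes 4 were higher in ESCs, Bmi1 (1.94-fold), Aebp2 (1.73-fold by the brightest of 5 probe sets, the others within the threshold), Eed (1.52-fold) and Kdm2b (1.5-fold, just past the threshold), and 2 lower, Sfmbt2 (2.91-fold, second probe set 0.10) and Phc1 (1.65-fold). These shares were 9.76% and 4.88%, against 5.19% and 4.19% of genes with a signal of 7 or more. Kdm2b read 9.02 in ESCs and 9.34 in the Tet1/Tet2 KD day 2 array, so that its direction turned there. The catalytic Ezh2 (0.15) and its partner Suz12 (0.38) did not pass. The H3K9 demethylase genes diverged: Kdm3a was 1.75-fold higher in ESCs, and Kdm4c (2.08-fold) and Jmjd1c (1.57-fold) were lower. Macroh2a1, a histone variant of silent chromatin, read 8.91, 7.58 and 9.02 in ESCs, EpiLCs (d2) and EpiLCs (d4). The day 2 value was again the low point, as for the actin genes above. Chd9 (3.04-fold, second probe set -0.13), Arid2 (1.67-fold), Stag2, a cohesin subunit (2.18-fold), and Hmgn5, a nucleosome-binding protein (2.46-fold), were lower in ESCs, and Hmgn5 read 9.44 at day 4 against 5.96 in ESCs. Acetylation genes had 2 of 49 higher and 0 lower, and the H3K4 and H3K36 list 1 of 36 in each direction, close to the background shares. Among imprinted and X-linked regulators, Plagl1, a growth-inhibiting zinc finger gene, was 12.4-fold higher in ESCs (9.95 and 6.32), though its second, dimmer probe set differed by 0.28, and Rlim, an X-linked ubiquitin ligase that activates Xist in female cells, was 2.43-fold lower. Xist differed by 0.19. Aebp2 (0.07), Jmjd1c (-0.12) and Arid2 (-0.06) also had a probe set within the threshold.

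**Figure D5:**
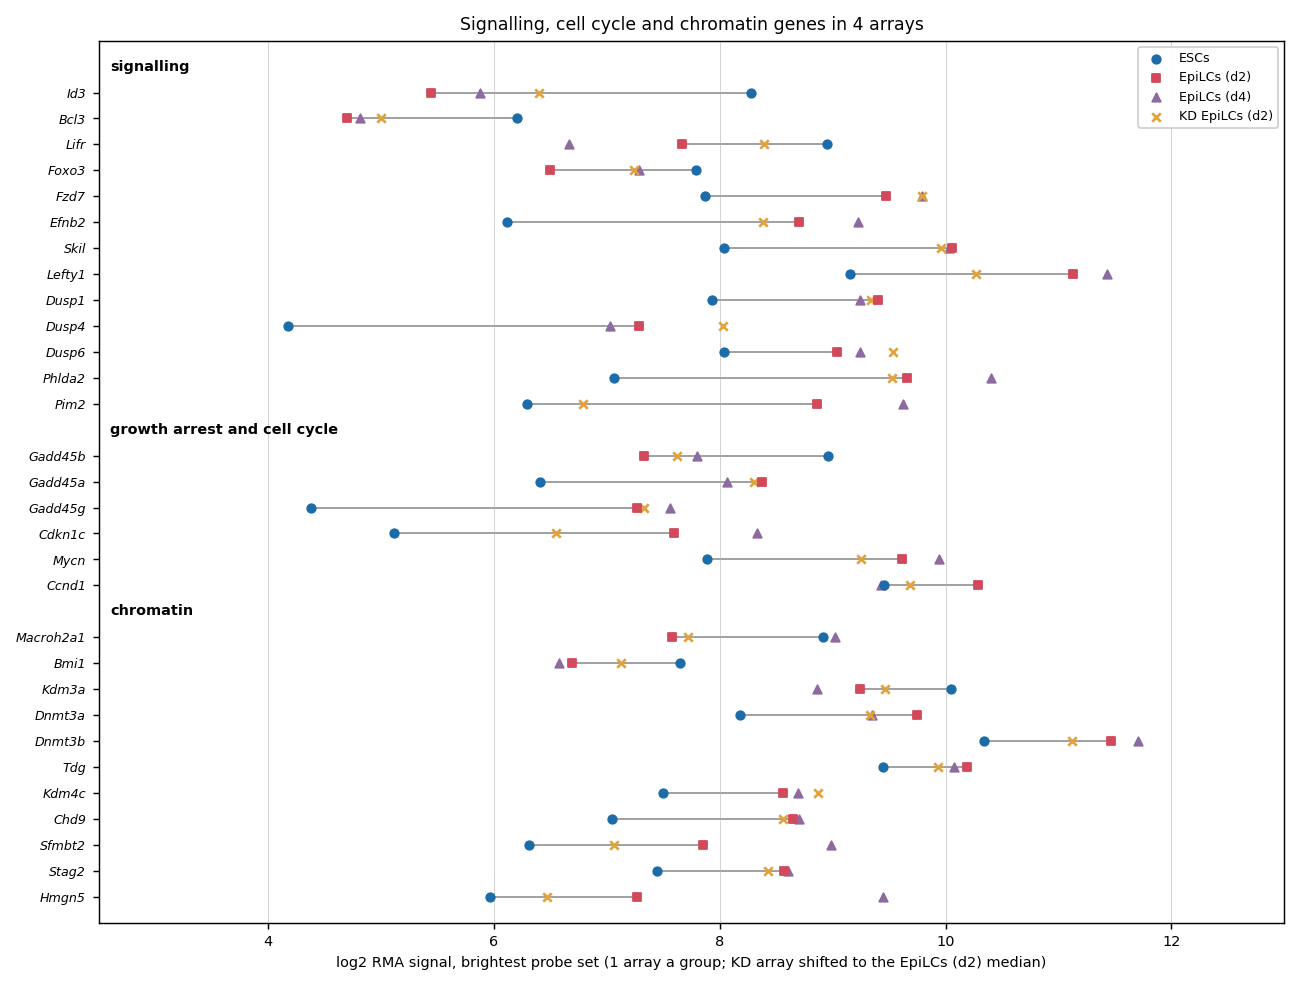
Log2 RMA signal (horizontal axis) of signalling, cell cycle and chromatin genes in ESCs (circles), EpiLCs (d2) (squares), EpiLCs (d4) (triangles) and Tet1/Tet2 KD EpiLCs (d2) (crosses, shifted to the EpiLCs (d2) median), 1 array each. The circle of Gadd45b lies above its square whereas those of Gadd45a and Gadd45g lie below, and the cross of Pim2 lies near its circle.

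Germline genes were a further group. Of 18 germ cell markers 6 were higher in ESCs and 2 lower (33.3% and 11.1%, against 2.70% and 2.32% of all genes). The other 10 were within the threshold, and the list median was 0.055. Dazl, an RNA-binding protein of germ cells, read 10.63, 8.12 and 6.85 in ESCs, EpiLCs (d2) and EpiLCs (d4), and its second probe set differed by 2.37. Stra8, a meiotic entry factor (1.76-fold), and Sycp3, of the synaptonemal complex (1.62-fold), were also higher, whereas Mael, a piRNA pathway gene (2.15-fold), and Dmrt1, a testis transcription factor (2.40-fold), were lower. Mael read 7.24 at day 4 against 7.41 in ESCs. Ddx4 (-0.25) and Prdm1 (-0.16) were within the threshold. Among the 40 genes with the largest increase, Stk31 (7.76 and 5.87), D1Pas1 (7.23 and 5.31) and Khdc3 (9.29 and 6.87) are known from testis or oocyte. By another probe set, the difference stayed within the threshold for D1Pas1 (0.45).

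The X chromosome, which was singled out after its values were seen, held 32 genes higher and 26 lower in ESCs among 597 measured (5.36% and 4.36%), above every autosome, whose shares ran from 1.58% to 3.70% higher and from 1.27% to 3.73% lower. X-linked genes among the 40 with the largest increase were Ott (7.41 and 4.98), Magea5 (7.27 and 4.90), Pramel3 (7.92, 5.68 and 4.20 in ESCs, EpiLCs (d2) and EpiLCs (d4)) and 1700013H16Rik (9.89 and 7.48). The related Magea3 (3.0-fold), Magea4 (1.98-fold), Rhox13 (2.17-fold) and Fthl17e (3.55-fold), chosen after their values were seen, lay on the same side. Most of these belong to multicopy families expressed in testis or placenta, whose members share sequence, so that a probe set may read several of them and the genes are not separate observations. X-linked genes lower in ESCs included Pim2, Acsl4, Stag2, Rlim and Hmgn5, described above. In the Tet1/Tet2 KD day 2 array, after the shift to 1 median, Pim2 read 6.79, Acsl4 7.92, Rlim 9.37 and Hmgn5 6.47. Each of these lay nearer to its value in ESCs than to that in EpiLCs (d2), whereas Stag2, at 8.42, lay nearer to EpiLCs (d2).

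Of the 858 called genes 574 were in none of the lists. Among the 40 largest increases, listed or not, Crxos, a homeobox gene of the preimplantation embryo, read 9.73 and 6.44, Crygd, a lens crystallin gene, 7.72 and 4.25, and Cdyl2, which encodes a chromodomain protein, 9.03, 6.71 and 5.53 at day 4, with other probe sets at 0.05 to 0.26. The unnamed transcript AI662270 was 9.34-fold higher in ESCs, and its second probe set differed by 3.81. The 40 largest increases also held Lrrc34 (7.14 and 4.64), the myosin gene Myo1f (7.98 and 5.73), the endocytic receptor gene Ly75 (6.28 and 4.25), Phf11a (9.67 and 7.69), Nfatc2ip (10.56 and 8.69) and the LIM-domain gene Lmo7 (8.13 and 6.29). Mymx, which encodes a small membrane protein of myoblast fusion, read 9.49, 7.66 and 5.46 in ESCs, EpiLCs (d2) and EpiLCs (d4). Among the largest decreases, Psmb10, a catalytic subunit of the immunoproteasome, read 6.55, 8.56 and 7.49 in ESCs, EpiLCs (d2) and EpiLCs (d4). In the interferon, NF-kappaB and cytokine list, 1 of 51 genes was higher and 2 were lower in ESCs (1.96% and 3.92%), near the background shares. The lower ones were Irf1, an interferon-response factor (1.72-fold), and Tapbp, which loads peptides on MHC class I (1.64-fold), and Tapbp read 7.05 and 7.77 but 6.75 at day 4 and 6.82 in the Tet1/Tet2 KD day 2 array, both below ESCs. Wt1, a zinc finger factor of kidney and gonad (5.15 and 7.29), Foxp1 (3.60-fold, with 6 other probe sets from -2.65 to -0.17) and Sox11 (4.95, 7.06 and 7.93 in ESCs, EpiLCs (d2) and EpiLCs (d4)) were transcription factor genes among the 40 largest decreases, as were Mycn and the primed markers Pou3f1, Otx2 and Sox4 (3.55-fold). Cyria (4.34 and 6.33), Tmem109 (6.19 and 7.96) and Cthrc1, which encodes a secreted glycoprotein (4.84 and 6.60), were also among these decreases. Otx2 read 6.53, 8.23 and 7.13, highest at day 2. Within the threshold by another probe set were Lmo7 (0.08), Tapbp (-0.08), Sox11 (-0.07), Sox4 (0.13 at the highest), Cyria (0.08) and Tmem109 (-0.04).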

How the data were processed

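Total RNA from 1 sample of each of 6 groups was hybridized to MG-430 PM array strips, Affymetrix 3′ expression arrays, after labelling of 150 ng with the 3′ IVT Express Kit, and read on a GeneAtlas system. The authors deposited log2 signals from robust multi-array averaging (RMA) in Affymetrix Expression Console, of unstated version. RMA corrects background, quantile-normalizes arrays to a common distribution and summarizes probes, so that differences of dim genes are compressed and a shift of total RNA is removed. The deposited medians were 5.28 to 5.29 in 4 arrays and 5.07 in both Tet1/Tet2 KD arrays, which may come from a separate run, and the KD day 2 values quoted here were shifted up by 0.21.

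Of 45141 probe sets, 104 AFFX controls, 551 with several gene symbols in the platform annotation and 15588 with none were left out. All value columns were mapped to samples. The difference was ESCs minus EpiLCs (d2), by the brightest probe set of each gene, with a threshold of 1.5-fold (0.585 on the log2 scale) and no p-value. The number of arrays, 1 a group, limits the precision. The genes named were the 40 with the largest difference in each direction, a choice of members of 60 lists (2321 measured genes) past the threshold, larger differences first, and members within it of the same step, complex or family, with other probe sets given where they lay on the other side. Members and lists were chosen with earlier results of these data known. Promoters came from RefSeq (GRCm38.p6). Alternatives were the fold threshold, a filter on dim probe sets, quantile normalization, centring, other rules for probe sets, and another EpiLC array. Calculations used Python 3.11.15, pandas 2.3.3, numpy 2.4.6 and matplotlib 3.10.9 and were tested on simulated data.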

Additional observations from a re-analysis of the deposited data

How the results depend on the processing

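The counts of 461 genes higher and 397 lower in ESCs fell to 179 and 146 at 2-fold. They became 447 and 379 with only probe sets above the median signal, 454 and 401 after quantile normalization of the 6 arrays, 458 and 398 after centring, 362 and 299 with the median of each gene's probe sets, 536 and 483 with any probe set, and 448 and 379 without the 2765 probe sets whose ID marks possible cross-hybridization. With the Tet1/Tet2 KD day 2 array in place of the scramble array, after quantile normalization, 674 genes were higher and 798 lower, and with EpiLCs (d4) 594 and 703. Of 120 counts (60 lists, both directions), 119 stayed within 1.5 times of their value after quantile normalization, 66 with the KD array and 73 with EpiLCs (d4). Of 241 named genes past the threshold, 207 stayed past it by the median of their probe sets, and none turned direction under a setting that kept the EpiLCs (d2) array. With the KD array 176 stayed past it and 6 turned: Cald1 (-0.65), Htra1 (-0.057), Kdm2b (-0.29), Lefty2 (0.028), Tapbp (0.24) and Zeb1 (-0.40). With EpiLCs (d4) 199 stayed past it and 8 turned: Cald1 (-0.48), Ccnd1 (0.027), Ccne1 (0.12), Epas1 (1.01), Macroh2a1 (-0.11), Mael (0.17), Tapbp (0.30) and Tpm4 (-0.055). The cause was not tested, and these arrays differ in knockdown, or in day, medium and replating. No paired analysis was possible because each group had 1 array, and no array could be left out for the same reason. Signal sets the limit at the dim end, where RMA compresses differences, so that a gene within the threshold at a signal near the array median was not shown to be unchanged.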
